A study of Mus musculus with 20 samples.

Results

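Untreated or control kidneys from the 2 mouse experiments of the series were compared with each other, to describe how far their baselines lay apart before any injury or telomerase manipulation is considered. All genes outside chromosomes X and Y were taken as members, 51083 of the 55471 gene identifiers in the count table, and they were read in 8 of the 20 kidneys. The actin-rtTA+ group was 4 female mice on a mixed background, aged 2 months, that carried the doxycycline-dependent activator rtTA under an actin promoter but no responder transgene. They drank doxycycline (2 mg/ml in 5% sucrose) for 15 days and were killed 8 days after its withdrawal. The TERT WT/WT saline group was 4 female wild-type mice on the Balb/c background, also aged 2 months, littermates of telomerase knockout mice, that received saline in the tail vein and were killed 18 days later. Background, transgene, doxycycline, sucrose, injection and the experiment itself all changed together between these groups and cannot be told apart, and mixed background means that the 4 actin-rtTA+ mice need not have been alike genetically.

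Inbred mouse strains are known to differ in the kidney at several kinds of gene: structural variants and processed gene copies that some strains carry and others lack, the major histocompatibility complex (MHC) with its strain-specific haplotypes, and clusters of detoxifying enzymes. The kidney also answers to diet, feeding time, steroid hormones and interferon, through transcription factors such as PPARalpha, the glucocorticoid receptor and the clock factors. In whole tissue, fewer cells of a type and less RNA per cell cannot be told apart.

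The 8 libraries held between 39323498 and 47988251 counts, with 23230 to 24181 genes detected in each. Mitochondrial genes took 11.5% to 18.3% of the counts in the actin-rtTA+ kidneys and 14.0% to 17.8% in the saline kidneys, so that the groups overlapped. Defining markers of whole kidney were present in all 8: Slc34a1 of the proximal tubule at 4374 to 6310.0 CPM (counts scaled to library size with TMM factors), Umod of the thick ascending limb at 1908 to 4018, Slc12a3 of the distal convoluted tubule at 575 to 790.5 and Aqp2 of the collecting duct at 319 to 711. By the edgeR test, Slc34a1 was called higher in actin-rtTA+ (log2 change 0.34, adjusted p = 0.028) and Aqp2 lower (log2 change -0.61, adjusted p = 0.040). Each of these 2 calls was lost in 5 of the 8 fits without 1 library. The proximal tubule list summed to between 61569 and 64866 CPM in the actin-rtTA+ kidneys and between 48369 and 54134 in the saline kidneys. A single member, Kap, gave 13880 to 17213 CPM and 6464 to 9224 CPM of these sums and much of their gap. The median log2 change of the list was 0.10. actin-rtTA+ replicate 2 had the largest share of counts from ribosomal protein genes (2.06%, against 1.24% to 1.71% in the other 7), and also from mitochondrial genes (18.3%) and from its 10 most abundant genes (26.1%, against 19.3% to 23.7%), and its part in the results was read by leaving it out. Among protein-coding genes averaging 1 CPM or more, 16.6% were called in the quartile of shortest exon length, 15.3% and 12.7% in the next, and 9.93% in the longest, with a median log2 change of 0.09 in the shortest and -0.05 in the longest; the part of length in the results was not tested. Replicates of a group are separate mice.

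Of 16620 genes tested outside X and Y, 2320 were called different at an adjusted p under 0.05 (edgeR quasi-likelihood test), which is 14.0%. There were 1328 genes higher in actin-rtTA+ (7.99% of those tested) and 992 lower (5.97%). The median size of the log2 change among called genes was 0.77, while the median over all tested genes was 0.00. Of the called genes, 562 were higher and 331 lower by a log2 change of at least 1 (5.37% of those tested), and 91 were higher and 64 lower by at least 3. The 4 libraries of one group all lay above the 4 of the other in 2161 called genes, and in 19.2% of all tested genes. When each library was left out in turn, between 1534 and 3158 genes were called. Leaving out TERT WT/WT saline replicate 2 gave the lowest count and actin-rtTA+ replicate 1 the highest, and in each of the 8 fits every gene shared with the full set kept its direction.

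**Figure D1:**
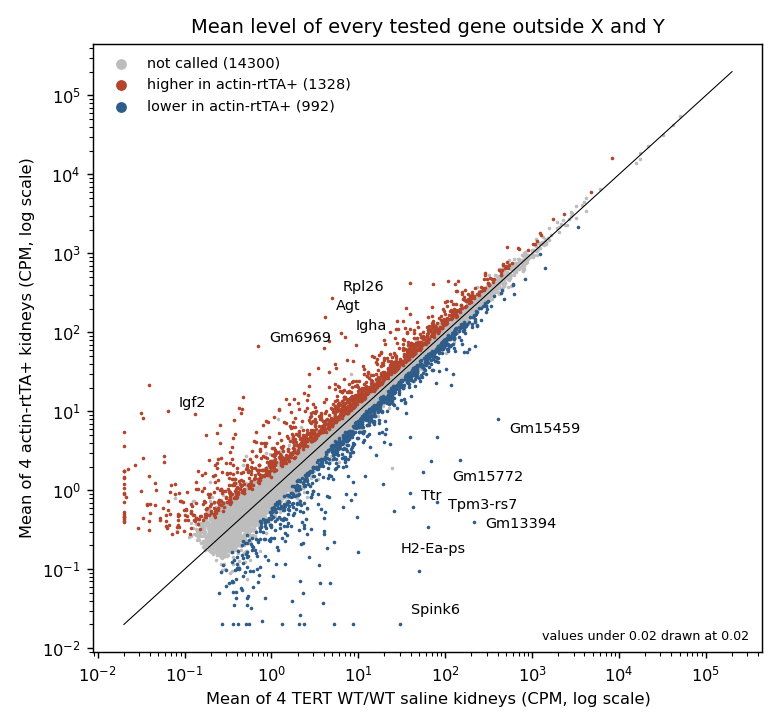
Mean level of every tested gene in the TERT WT/WT saline kidneys (x axis) and the actin-rtTA+ kidneys (y axis), each the mean of 4 libraries in CPM on log scales; each point is 1 gene, the line marks equal levels, and means under 0.02 are drawn at 0.02. Genes called higher in actin-rtTA+ (1328) and lower (992) lie on both sides of the line at all levels, and the genes farthest from it, such as Agt and Rpl26 above and Gm13394 and Spink6 below, have little or no signal in one of the groups.

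The widest gaps included pairs of a gene and its near-identical processed copy elsewhere in the genome. Such copies arise when a messenger RNA is copied back into DNA, and strains differ in which ones they carry. Rpl26, which encodes a protein of the large ribosomal subunit, Tpm3, a tropomyosin of the actin filament, Ahcy, which splits S-adenosylhomocysteine, and the glycolytic gene Gapdh are shown here with their copies because the sequences are so alike that reads are hard to assign. These pairs were chosen after their values were seen. Each stretch of 90 bases lies in the coding sequence and holds as many differences as any other stretch of that length, and the differing bases are in capitals (GENCODE M21 transcripts, GRCm38, coding strand).
Rpl26: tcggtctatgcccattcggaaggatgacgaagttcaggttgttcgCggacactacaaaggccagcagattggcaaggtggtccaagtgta
Gm15772: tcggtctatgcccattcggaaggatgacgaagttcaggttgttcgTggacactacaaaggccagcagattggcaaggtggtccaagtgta
Tpm3: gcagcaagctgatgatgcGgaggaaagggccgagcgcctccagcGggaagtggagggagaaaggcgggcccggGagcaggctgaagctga
Tpm3-rs7: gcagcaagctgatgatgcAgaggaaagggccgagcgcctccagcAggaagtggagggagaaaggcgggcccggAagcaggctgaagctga
Ahcy: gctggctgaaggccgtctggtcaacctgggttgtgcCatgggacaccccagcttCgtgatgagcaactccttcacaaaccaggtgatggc
Gm4737: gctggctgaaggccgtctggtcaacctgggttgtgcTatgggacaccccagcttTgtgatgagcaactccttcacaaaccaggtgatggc
Gapdh: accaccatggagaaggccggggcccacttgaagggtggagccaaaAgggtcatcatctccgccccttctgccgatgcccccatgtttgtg
Gm13394: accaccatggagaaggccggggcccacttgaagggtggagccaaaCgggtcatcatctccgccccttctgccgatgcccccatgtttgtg
The copy stretches lie at chr5:3236562-3236651 (Gm15772, plus strand), chr14:113314729-113314818 (Tpm3-rs7, plus strand), chr16:46153910-46153999 (Gm4737, minus strand) and chr2:28934220-28934309 (Gm13394, minus strand), each inside the single exon of its copy. Rpl26 itself is on chromosome 11, Tpm3 on 3, Ahcy on 2 and Gapdh on 6, and across their whole coding sequences without the stop codon the copies differed at 2 of 435, 3 of 744, 4 of 1296 and 1 of 999 bases.

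Rpl26 stood at 188, 389.6, 269.5 and 237 CPM in the actin-rtTA+ kidneys and at 5.28, 5.95, 4.09 and 4.38 CPM in the saline kidneys, a log2 change of 5.78 ± 0.25 (SE, n = 4 and 4, adjusted p = 2.4e-07). Its copy Gm15772 ran the other way, at 1.71, 3.33, 2.88 and 1.82 CPM against 179, 159.7, 116 and 132 CPM (log2 change -5.92 ± 0.24, adjusted p = 1.7e-07). The summed level of the pair was between 189.6 and 393 CPM in actin-rtTA+ and between 120.1 and 184 CPM in the saline kidneys, so its gap was a log2 ratio of 0.85 where the members differed by more than 5.

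Tpm3 was at 102 to 117 CPM in actin-rtTA+ and 22.9 to 28.9 CPM in saline kidneys (log2 change 2.02 ± 0.10, adjusted p = 5e-07), and Tpm3-rs7 at 0.501 to 0.869 CPM against 78.9 to 81.0 CPM (log2 change -6.79 ± 0.14, adjusted p = 8.6e-10). Their sum was nearly level, 103 to 118 CPM against 104 to 109.9 CPM, a log2 ratio of 0.04. Ahcy rose by a log2 of 1.21 ± 0.08 (adjusted p = 4.3e-06) while Gm4737 fell by 5.04 ± 0.17 (adjusted p = 3e-08), and their sum differed by 0.37 in the same direction as Ahcy. Gm13394 was nearly unread in actin-rtTA+ at 0.23, 0.601, 0.338 and 0.404 CPM but reached 219, 233, 198 and 216 CPM in the saline kidneys (adjusted p = 1e-09). Gapdh was at 1686 to 2422 CPM against 1432 to 1809 CPM and did not pass the test (log2 change 0.42 ± 0.13, adjusted p = 0.053).

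**Figure D2:**
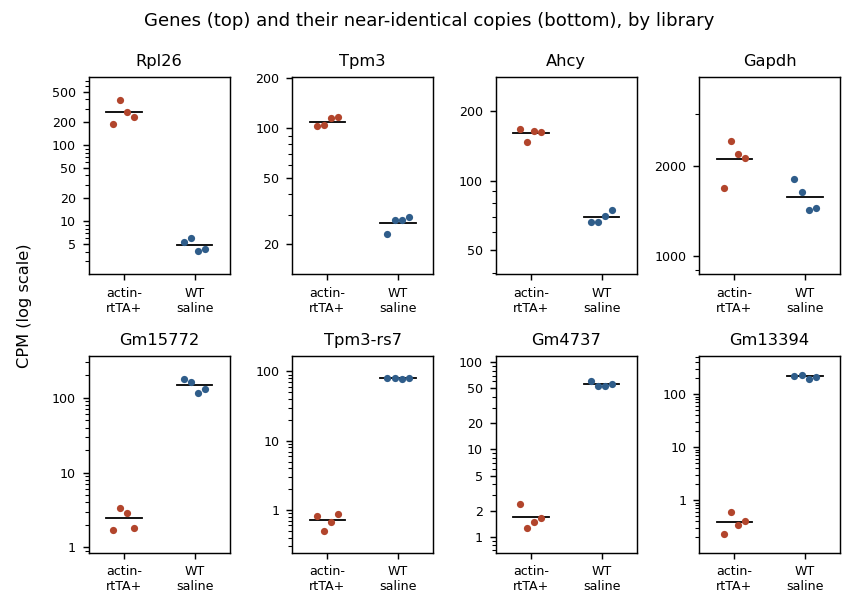
Level of 4 genes (top) and of their near-identical processed copies (bottom) in each library, in CPM on log scales that differ between panels; points are mice, bars are group means, actin-rtTA+ on the left and TERT WT/WT saline on the right of each panel. The copies are lower in all 4 actin-rtTA+ kidneys, and Rpl26, Tpm3 and Ahcy are higher in them, whereas the Gapdh values overlap.

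The same layout was looked for across the table, after these pairs had been seen. Among 247 called pseudogenes and copies (names beginning with Gm, or ending in ps or rs) with a log2 change of at least 1, 115 matched a protein-coding transcript over at least 50% of their length at 90% identity or more. Of these copies, 74 were lower and 41 higher in actin-rtTA+, and the matched gene was called in the opposite direction in 22, in the same direction in 6, and not called in 87. The layout occurred in both directions: Gm8615 stood at 8.41 to 13.3 CPM in actin-rtTA+ and 0.261 to 0.523 CPM in saline kidneys, and Gnpda1, a deaminase of glucosamine 6-phosphate that it matches at 99.1%, at 27.0 to 38.9 CPM against 95.2 to 108 CPM. Gm15459, which matches the heat shock cognate Hspa8 at 99.7%, was at 6.58 to 10.05 CPM against 342 to 481 CPM (log2 change -5.67 ± 0.17, adjusted p = 2.2e-08), and Gm4735, which matches the enolase Eno1 at 99.6%, at 0.225 to 0.586 CPM against 58.1 to 72.1 CPM. Neither Hspa8 (adjusted p = 0.43) nor Eno1 (adjusted p = 0.19) passed the test. Unprocessed pseudogenes were called in 44.4% of 45 tested and processed pseudogenes in 18.95% of 649, against 13.4% of 14045 protein-coding genes. Reads were aligned to the mm10 reference, which is of the C57BL/6J strain, and the part of sequence differences from it in these values was not tested.

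Genes with a signal in only one of the groups were few. By a rule of at least 20 counts in every library of one group and at most 3 in every library of the other, 14 were present in actin-rtTA+ only and 11 in saline kidneys only. Spink6, a protease inhibitor, had no count in any actin-rtTA+ kidney and stood at 31.7, 33.4, 32.7 and 22.3 CPM in the saline kidneys, at least 457-fold above a floor set at 3 counts in each library. Serpina3b, a serine protease inhibitor of a repeated gene cluster, had 1 count in all 4 actin-rtTA+ libraries together and 7.07 to 10.9 CPM in the saline kidneys, a ratio of 1592 with a counting interval (exact, 95%) from 285 to 62924. Serpina3h of the same cluster followed with 0 to 0.0202 CPM against 1.13 to 1.48 CPM. Elobl and Catspere1 were present in actin-rtTA+ only, Elobl at 1.54 to 2.13 CPM against 0 to 0.0211 CPM, and Catspere1 at 3.13 to 4.05 CPM against 0 to 0.0498 CPM. Such intervals and floors cover counting error only, and members of repeated clusters may share reads.

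Among the genes with the largest rises was Igf2, the imprinted fetal growth factor, at 8.29, 15.8, 15.1 and 1.13 CPM in actin-rtTA+ and 0 to 0.182 CPM in saline kidneys (log2 change 7.20 ± 0.99, adjusted p = 0.00088). actin-rtTA+ replicate 4 was the lowest of its group and still above all saline kidneys. The overlapping antisense gene Igf2os gave 2.07, 3.45, 2.50 and 0.364 CPM against 0 to 0.0652 CPM, and with the strand setting not stated the reads of these genes cannot be told apart. Azgp1, which encodes a secreted lipid-mobilizing protein, was at 1.63 to 3.94 CPM against 0.0202 to 0.0498 CPM. On the other side was the MHC class II gene H2-Ea-ps, which is annotated as a polymorphic pseudogene. It stood at 0.334, 0, 0.045 and 0 CPM in actin-rtTA+ and 60.3, 56.6, 43.7 and 39.4 CPM in saline kidneys (log2 change -8.94 ± 0.48, adjusted p = 1e-06).

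Several abundant genes were called with a log2 change of at least 1. Sord, sorbitol dehydrogenase of the polyol pathway that makes fructose, was at 838, 1684, 922 and 1381 CPM in actin-rtTA+ and 483, 496, 506 and 567 CPM in saline kidneys (log2 change 1.23 ± 0.20, adjusted p = 0.0024). Ly6e, an interferon-inducible surface protein, reached 342 to 556 CPM against 131 to 150.2 CPM, and Cyp4a31, a fatty acid hydroxylase, 395 to 516 CPM against 93.3 to 120.4 CPM (log2 changes 1.68 ± 0.14 and 2.05 ± 0.12). The called falls included the potassium channel Kcnj16 of the distal nephron, at 568 to 794 CPM against 1228 to 1579 CPM (log2 change -1.09 ± 0.14, adjusted p = 0.00051). They also included the bile acid transporter Slc10a2, at 47.4 to 99.6 CPM against 164 to 220.1 CPM, Cth, which makes cysteine from cystathionine, at 51.6 to 59.6 CPM against 157 to 199 CPM, and Cyp2d26 at 252 to 378 CPM against 582 to 640.1 CPM. In none of these 7 genes did the groups overlap, as was so for 2161 of all 2320 called genes.

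Of the renin-angiotensin system, which sets blood pressure and salt balance, 12 genes were tested, and 3 were higher and 1 lower (median log2 change 0.14, against 0.00 for all genes). The called share was 33.3%, against 14.0% of all genes tested. The largest gap was at its substrate: Agt, angiotensinogen (chromosome 8), stood at 117, 191, 171 and 151 CPM in actin-rtTA+ and 3.78, 4.17, 4.11 and 4.53 CPM in saline kidneys, a log2 change of 5.25 ± 0.17 (adjusted p = 2.3e-08). Every actin-rtTA+ kidney was thus far above every saline kidney. Prcp, a carboxypeptidase that removes the last residue of angiotensin II, was at 62.0 to 78.4 CPM against 21.2 to 34.5 CPM (log2 change 1.38 ± 0.15, adjusted p = 0.00015). Mme, neprilysin, was lower at 189 to 234 CPM against 287 to 388 CPM (log2 change -0.66 ± 0.11, adjusted p = 0.0029). Renin itself (Ren1) was at 161 to 340.0 CPM against 163 to 269 CPM and did not pass the test (log2 change 0.13 ± 0.22, adjusted p = 0.74). Klk1, the kidney kallikrein that releases kinins, was lower at 1848 to 2395 CPM against 3052 to 3642 CPM (log2 change -0.67 ± 0.11, adjusted p = 0.0022).

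Of 16 tested genes known best from hepatocytes, 6 were higher and 1 lower (median 0.63, 43.8% called against 14.0% of all genes). The 3 fibrinogen chains, which the kidney tubule can also make, were all higher: Fgg at 9.25 to 13.2 CPM against 0.991 to 1.43 CPM (log2 change 3.15 ± 0.17, adjusted p = 1.2e-06), Fgb at 3.20 to 6.75 CPM against 0.142 to 0.473 CPM, and Fga at 28.6 to 34.1 CPM against 11.04 to 16.3 CPM. Ttr, the thyroxine carrier transthyretin, was lower, at 0.647 to 1.43 CPM against 23.4 to 49.0 CPM (log2 change -5.42 ± 0.30, adjusted p = 1.2e-06). Albumin (Alb), the defining hepatocyte transcript, was at 7.26 to 15.0 CPM in actin-rtTA+ and 13.1 to 17.7 CPM in saline kidneys. It did not pass the test (log2 change -0.45 ± 0.19, adjusted p = 0.16). The list summed to between 177 and 279 CPM against 92.4 to 109 CPM, of which Apob, the lipoprotein backbone, gave 63.7 to 178 CPM and 2.17 to 9.45 CPM. Alb and Apob were named after their values were seen, and the source of these transcripts was not tested.

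**Figure D3:**
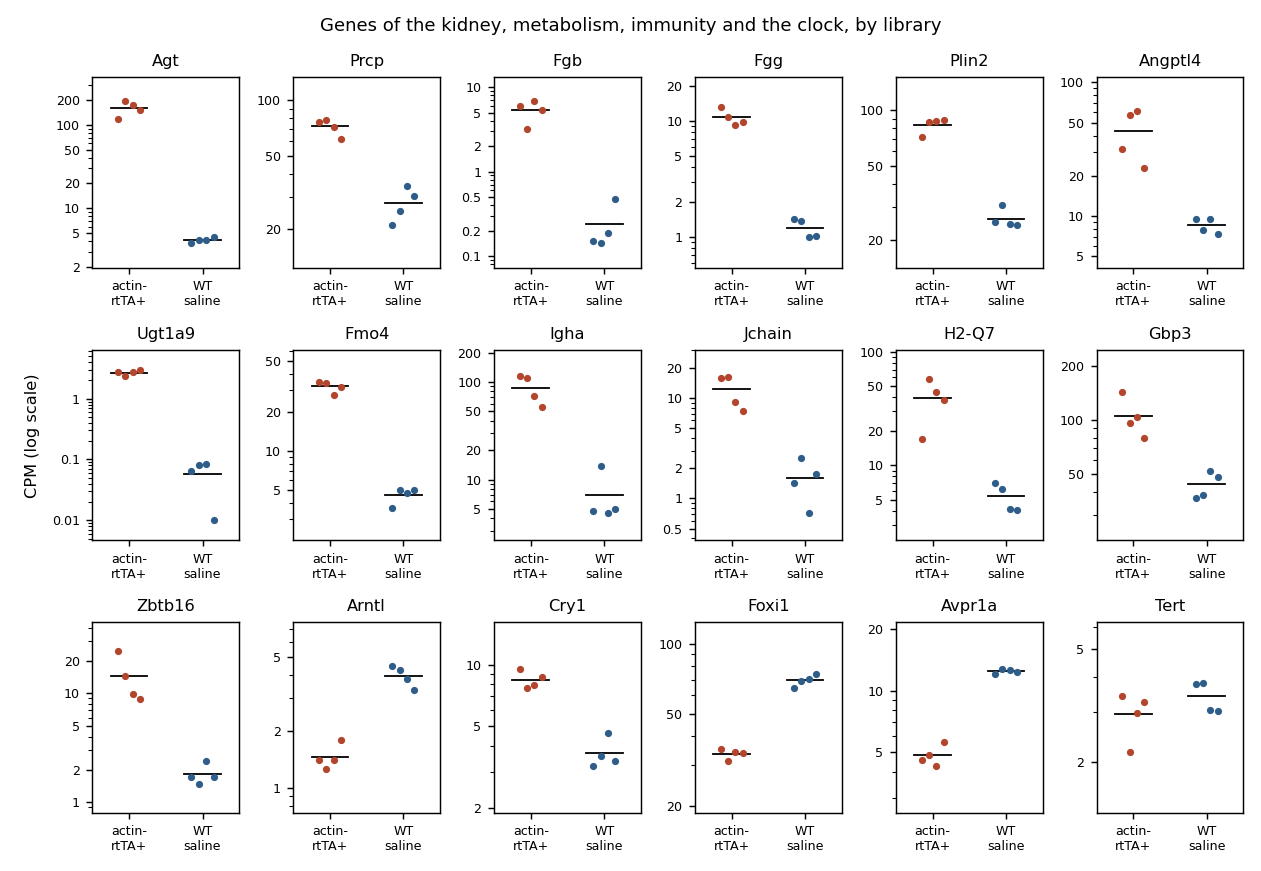
Level of 18 genes in each library, in CPM on log scales that differ between panels, with actin-rtTA+ on the left and TERT WT/WT saline on the right; points are mice, bars are group means, and a value of 0 (1 saline kidney for Ugt1a9) is drawn at 0.01. The groups do not overlap in any panel except that of Tert. All genes shown but Tert were called, and 2161 of all 2320 called genes do not overlap. Arntl, Foxi1 and Avpr1a are the panels of called genes in which the saline kidneys are the higher group.

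The kidney clears drugs, bilirubin and steroids with enzymes that are encoded in strain-variable clusters. Of 99 tested genes of xenobiotic and steroid metabolism, 29 were higher and 10 lower in actin-rtTA+ (median 0.20, 39.4% called, all genes 14.0%). Fmo4, a flavin monooxygenase, was at 34.3, 33.7, 27.5 and 31.7 CPM against 3.65, 4.96, 4.77 and 4.98 CPM (log2 change 2.79 ± 0.12, adjusted p = 2.8e-07). The glucuronosyltransferases Ugt1a9 and Ugt1a10, which share their last exons so that reads may be split between them, were at 2.35 to 3.01 CPM against 0 to 0.0843 CPM and at 23.4 to 45.4 CPM against 2.29 to 3.56 CPM. Hsd3b2, a steroid dehydrogenase, was at 385 to 468 CPM against 52.7 to 102 CPM (log2 change 2.53 ± 0.18, adjusted p = 9.5e-06). The male-patterned kidney gene Kap, an androgen-responsive gene of the proximal tubule, was at 13880 to 17213 CPM against 6464 to 9224 CPM (log2 change 0.93 ± 0.13, adjusted p = 0.0011), in females of both groups.

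Of 43 tested genes of fatty acid oxidation and PPAR targets, 12 were higher and 2 lower (median 0.14, 32.6% called, all genes 14.0%). Plin2, the lipid droplet coat, was at 72.0, 86.9, 87.4 and 88.4 CPM against 24.9, 30.9, 24.4 and 24.3 CPM (log2 change 1.68 ± 0.11, adjusted p = 3.5e-06), and Angptl4, an inhibitor of lipoprotein lipase, at 31.8, 57.2, 61.4 and 22.7 CPM against 9.54, 7.88, 9.53 and 7.32 CPM (log2 change 2.33 ± 0.29, adjusted p = 0.00043). Cyp4a12a, an arachidonic acid hydroxylase, was among the lower genes, at 1.58 to 6.84 CPM against 23.7 to 57.4 CPM (log2 change -3.05 ± 0.40, adjusted p = 0.00061).

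Of 31 tested genes of sterol and fatty acid synthesis, 3 were higher and 8 lower (median -0.14, 35.5% called, all genes 14.0%). The desaturase Scd2 was lower, at 61.1 to 86.1 CPM against 109 to 134 CPM (log2 change -0.76, adjusted p = 0.0014). Dhcr7, the last enzyme of cholesterol synthesis, went the other way at 36.4 to 46.6 CPM against 25.1 to 30.1 CPM. Of 28 tested genes of fructose and glucose handling and gluconeogenesis, 6 were higher and 1 lower (median 0.09, 25% called, all genes 14.0%). Besides Sord, the fructose carrier Slc2a5 was at 147 to 182 CPM against 114 to 124 CPM (log2 change 0.48 ± 0.08, adjusted p = 0.0036). G6pc, which frees glucose from its phosphate, was at 466 to 582 CPM against 262 to 335 CPM (log2 change 0.92 ± 0.11, adjusted p = 0.00036). Pklr, a pyruvate kinase, was lower at 36.7 to 40.3 CPM against 45.8 to 59.8 CPM. The actin-rtTA+ mice had sucrose in their drinking water until 8 days before collection, and its part in these values cannot be told apart from that of background.

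The MHC on chromosome 17 carries the class I and class II genes of antigen presentation, whose number and sequence differ between haplotypes. Of 23 tested class I genes, 12 were higher and 1 lower (median 0.60, 56.5% called against 14.0% of all genes). H2-Q7, a non-classical class I gene, was at 17.1, 57.3, 44.7 and 37.6 CPM against 7.02, 6.24, 4.11 and 4.01 CPM (log2 change 2.87 ± 0.34, adjusted p = 0.00031), and its near neighbour H2-Q6 at 40.9 to 151 CPM against 17.8 to 30.6 CPM. actin-rtTA+ replicate 1 was the lowest of its group at both. Tap2, which carries peptides to class I molecules, was at 33.4 to 38.0 CPM against 21.8 to 24.1 CPM (log2 change 0.60 ± 0.08, adjusted p = 0.00063). Of 11 tested class II genes, 3 were higher and 2 lower (median 0.02, 45.5% called). H2-DMb1, a peptide loader, was higher at 14.0 to 25.01 CPM against 4.66 to 7.35 CPM. The class I count fell to 8 without TERT WT/WT saline replicate 4 or without actin-rtTA+ replicate 3, and rose to 17 without actin-rtTA+ replicate 1. Reads of such similar genes may be misplaced.

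Of 55 tested interferon-stimulated genes, 29 were higher and 2 lower (median 0.50), which is 56.4% called where 14.0% of all genes were. Gbp3, a guanylate-binding protein against intracellular microbes, was at 143, 96.7, 104 and 80.0 CPM against 37.1, 38.4, 52.5 and 48.4 CPM (log2 change 1.26 ± 0.18, adjusted p = 0.001). Zbp1, a sensor of left-handed nucleic acid, was at 4.04 to 5.06 CPM against 1.59 to 2.61 CPM, and Ifi27 at 38.1 to 61.1 CPM against 24.3 to 30.5 CPM. The lower genes were Gbp10 and Gbp4, and Gbp4 stood at 6.83 to 9.48 CPM against 11.01 to 13.7 CPM (log2 change -0.74 ± 0.13, adjusted p = 0.0034). Without TERT WT/WT saline replicate 4 the list held 19 calls in all, and without actin-rtTA+ replicate 1 it held 34.

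Of 27 tested complement genes, 8 were higher and 6 lower (median 0.45, 51.9% called against 14.0% of all genes). Among the higher genes, the C1 protease C1s1 was at 21.3 to 36.6 CPM against 12.0 to 13.3 CPM (log2 change 1.15 ± 0.15, adjusted p = 0.00053). Serping1, the inhibitor of the C1 proteases, was at 129 to 260 CPM against 86.9 to 100.5 CPM, and Cd55, which speeds the decay of complement convertases, at 13.4 to 18.5 CPM against 5.94 to 8.33 CPM. Among the lower genes, C4b, a central component of the classical pathway, was at 2.71 to 3.96 CPM against 12.8 to 14.4 CPM (log2 change -1.96 ± 0.13, adjusted p = 4e-06), and its near-identical neighbour C4a at 0.283 to 0.826 CPM against 1.22 to 1.89 CPM. C1rb and C1s2, second copies of the C1 proteases, were at 0 to 0.0675 CPM against 0.522 to 0.971 CPM and at 0.158 to 0.601 CPM against 1.87 to 2.41 CPM. The inhibitor Cfi was lower too, at 3.78 to 5.50 CPM against 9.15 to 10.7 CPM (log2 change -1.14 ± 0.13, adjusted p = 0.00023).

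Of 29 tested markers of T, NK, B and plasma cells, 9 were higher and 1 lower (median 0.64, 34.5% called, all genes 14.0%). Transcripts of IgA plasma cells led: Igha, the IgA heavy chain, was at 114, 109, 72.3 and 55.9 CPM against 4.78, 13.7, 4.51 and 4.98 CPM (log2 change 3.64 ± 0.39, adjusted p = 0.00016). Jchain, which joins IgA into dimers, was at 7.44 to 16.3 CPM against 0.717 to 2.51 CPM, and Igkc, the kappa light chain, at 39.7 to 112 CPM against 4.01 to 15.5 CPM. The list summed to between 138 and 292 CPM in actin-rtTA+ and 33.8 to 63.9 CPM in saline kidneys. It held 6 calls without TERT WT/WT saline replicate 2, 3 or 4 and without actin-rtTA+ replicate 2 or 3. Of 26 tested macrophage and monocyte markers none was called by edgeR (median 0.21), where 5 had an unadjusted p under 0.05, DESeq2 called 2 and limma voom 4. edgeR called 4 of them without actin-rtTA+ replicate 1 and 1 without actin-rtTA+ replicate 3. Of 12 neutrophil and dendritic cell markers 1 was higher and 1 lower (median 0.12, 16.7% called against 14.0% of all genes). In each of 4 fits without 1 library this last list held 1 call.

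Of 22 tested genes of the circadian clock, which runs by time of day and feeding, 10 were higher and 3 lower (median 0.25). That made 59.1% called, against 14.0% of all genes tested. Arntl, the positive arm of the loop, was at 1.40, 1.25, 1.40 and 1.80 CPM in actin-rtTA+ and 4.48, 4.23, 3.80 and 3.34 CPM in saline kidneys (log2 change -1.43 ± 0.16, adjusted p = 0.00025). Cry1, a repressor of the loop, was at 7.71 to 9.50 CPM against 3.22 to 4.66 CPM (log2 change 1.18 ± 0.14, adjusted p = 0.0003), and Nfil3, a repressor of clock-driven promoters, was higher at 9.64 to 10.7 CPM against 5.39 to 6.001 CPM. No source used here gives the hour of collection, and its part was not tested.

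Of 23 tested genes that answer to glucocorticoids or FoxO factors, 10 were higher and none lower (median 0.31, 43.5% called, all genes 14.0%). The count fell to 6 without TERT WT/WT saline replicate 2. Zbtb16, a zinc finger repressor strongly induced by glucocorticoids, was at 24.4, 14.3, 9.90 and 8.91 CPM against 1.70, 1.48, 2.38 and 1.69 CPM (log2 change 2.99 ± 0.32, adjusted p = 0.00016). Sgk1, the kinase that keeps sodium channels at the membrane, was at 109.7 to 123 CPM against 59.2 to 80.2 CPM, and Pdk4, which shuts pyruvate out of oxidation, at 11.3 to 16.2 CPM against 4.54 to 7.63 CPM. Of 24 immediate early genes 3 were higher and none lower (median 0.08), which is 12.5% called where 14.0% of all genes were. Klf2, an endothelial factor, was among them at 31.2 to 45.8 CPM against 20.5 to 31.4 CPM, values that overlapped.

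**Figure D4:**
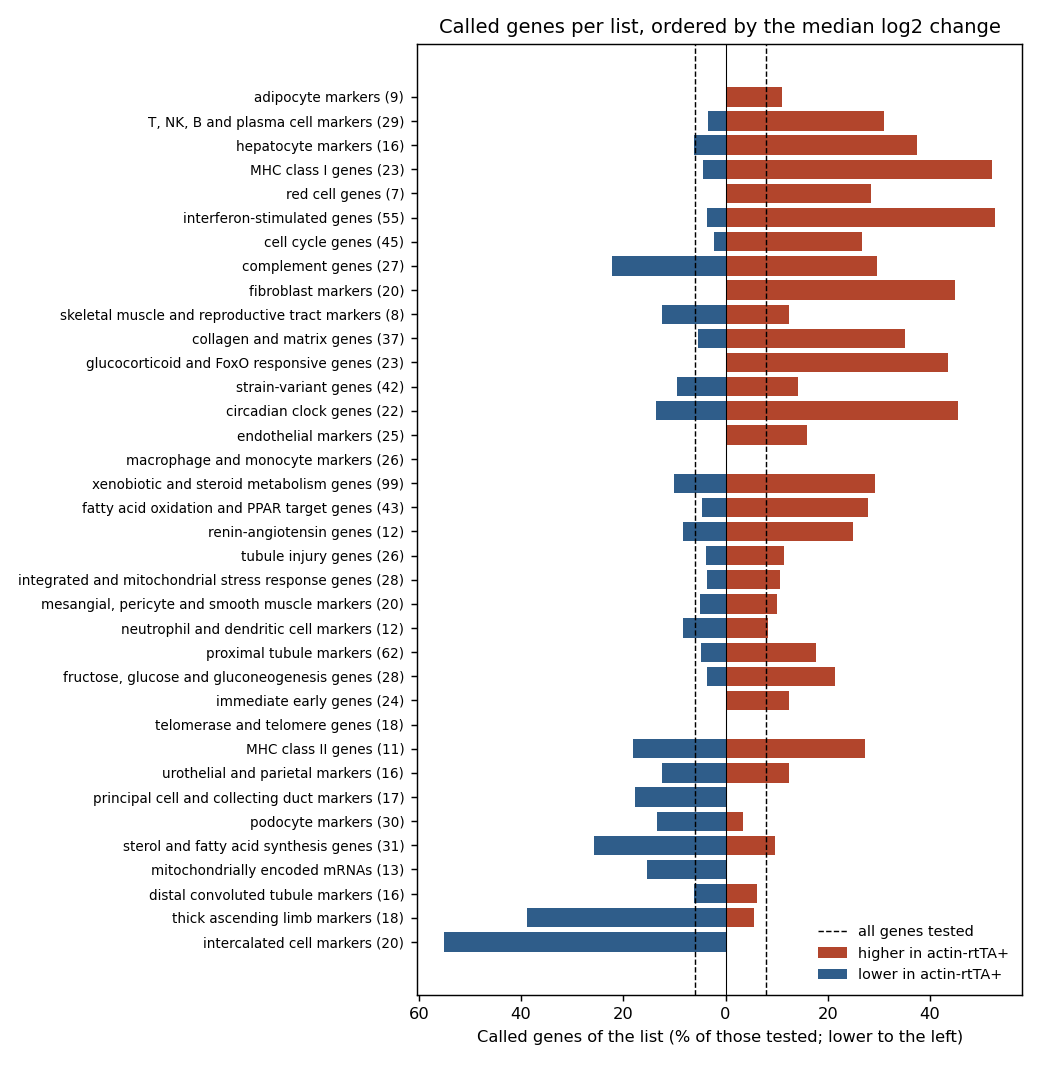
Share of the tested genes of each list that was called higher in actin-rtTA+ (bars to the right) or lower (bars to the left), in percent, with the number tested in brackets, for lists with at least 7 tested genes; lists are ordered by their median log2 change, and dashed lines mark the shares of all tested genes (7.99% and 5.97%). Interferon-stimulated and MHC class I genes reach farthest to the right, and intercalated cell and thick ascending limb markers farthest to the left.

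Among the marker lists of the nephron, the most lower calls were in intercalated cells, which secrete acid or base in the collecting duct. Of 20 markers, 11 were lower and none higher (55.0% called, against 5.97% lower of all genes tested), and 19 of 20 had a log2 change below 0 (median -0.43). Foxi1, the factor that defines these cells, was at 35.3, 31.3, 34.2 and 33.9 CPM in actin-rtTA+ and 64.5, 69.2, 70.7 and 74.1 CPM in saline kidneys (log2 change -1.05 ± 0.08, adjusted p = 1e-05). Avpr1a, a vasopressin receptor, was at 4.30 to 5.64 CPM against 12.1 to 12.7 CPM, Slc26a4, the bicarbonate exchanger pendrin, at 42.6 to 54.3 CPM against 74.3 to 87.5 CPM, and the proton pump subunit Atp6v0d2 at 34.3 to 43.9 CPM against 59.5 to 66.7 CPM. The summed level of the list was 1111 to 1224 CPM against 1479 to 1563 CPM. This list held 9 to 13 calls in the fits without 1 library and 0 to 15 in the other settings tried.

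Of 18 markers of the thick ascending limb, 1 was higher and 7 lower (median -0.29, 44.4% called against 14.0% of all genes tested). The count of calls fell to 4 or 5 without TERT WT/WT saline replicate 2, 3 or 4 or actin-rtTA+ replicate 3 or 4. It was 10 without actin-rtTA+ replicate 1. Bsnd, an accessory subunit of basolateral chloride channels, was lower at 65.6 to 71.3 CPM against 88.9 to 103 CPM (log2 change -0.49, adjusted p = 0.0023). The distal convoluted tubule gave 1 higher and 1 lower of 16 (12.5% called against 14.0% of all genes tested). A log2 change below 0 was seen in 14 of the 16 (median -0.17). Its summed level was 4381 to 5005 CPM against 6172 to 6681 CPM, without overlap. A large part of these sums and of their gap came from Klk1 alone. Slc12a3 was at 575 to 782 CPM against 719 to 790 CPM and did not pass the test (adjusted p = 0.33). The lower gene was the kallikrein Klk1, a protease that releases kinins, at 1848 to 2395 CPM against 3052 to 3642 CPM (log2 change -0.67 ± 0.11, adjusted p = 0.0022), and the higher gene was the magnesium channel Trpm6 at 17.2 to 22.8 CPM against 8.44 to 14.4 CPM. The list held 4 calls without actin-rtTA+ replicate 1. The principal cell and collecting duct list gave 3 lower of 17 (median -0.11, 17.6% called against 14.0% of all genes tested). None of those 3 was called without TERT WT/WT saline replicate 2 or without actin-rtTA+ replicate 3 or 4, 1 call was left without TERT WT/WT saline replicate 3, and 5 markers were called without actin-rtTA+ replicate 2.

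Of 62 proximal tubule markers, 11 were higher and 3 lower (median 0.10, 22.6% called against 14.0% of all genes tested). Keg1, an acyltransferase of this segment, was at 1676 to 2054 CPM against 1019 to 1472 CPM (log2 change 0.57 ± 0.12, adjusted p = 0.01), while Acsm3, a medium-chain acyl-CoA synthetase, was at 0.376 to 1.73 CPM against 5.83 to 8.91 CPM (log2 change -3.02 ± 0.39, adjusted p = 0.00054). The count fell to 6 without TERT WT/WT saline replicate 2, to 8 without replicate 3 or 4 of that group, and to 9 without actin-rtTA+ replicate 4. It rose to 19 without actin-rtTA+ replicate 1. Of 30 podocyte markers, 1 was higher and 4 lower (median -0.14), which is 16.7% called against 14.0% of all genes tested. The podocyte list held 3 calls without TERT WT/WT saline replicate 4 and 9 without actin-rtTA+ replicate 1. Myom2 was the higher one, at 21.7 to 39.3 CPM against 13.2 to 16.05 CPM. It ran against most of the podocyte list, in which 19 of 30 had a log2 change below 0.

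Of 20 fibroblast markers, 9 were higher and none lower (median 0.38, 45.0% called), and of 37 collagen and matrix genes, 13 were higher and 2 lower (median 0.31, 40.5% called), against 14.0% called of all genes tested. Col3a1, the fibrillar collagen of loose connective tissue, was at 41.5, 66.5, 58.5 and 85.9 CPM against 31.0, 27.5, 29.9 and 29.0 CPM (log2 change 1.11 ± 0.18, adjusted p = 0.0024). Col6a2 was at 29.3 to 33.4 CPM against 19.6 to 20.8 CPM, whereas Col5a2 was lower at 4.26 to 8.84 CPM against 14.9 to 19.8 CPM (log2 change -1.28 ± 0.20, adjusted p = 0.0019). Endothelial and mesangial markers were called at shares near that of all genes (16% and 15%). Of 25 endothelial markers 4 were higher (median 0.22, 2 called without TERT WT/WT saline replicate 2, 3 or 4 and 9 without actin-rtTA+ replicate 1), with the receptor Tie1 at 52.6 to 65.9 CPM against 35.2 to 42.4 CPM. Of 20 mesangial, pericyte and smooth muscle markers 2 were higher and 1 lower (median 0.13), with the protease inhibitor Serpine2 at 28.7 to 53.0 CPM against 15.9 to 17.7 CPM.

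Of 45 tested cell cycle genes, 12 were higher and 1 lower (median 0.48, 28.9% called against 14.0% of all genes tested). Ube2c, which drives exit from mitosis, was at 3.43, 7.23, 7.25 and 10.1 CPM against 1.89, 1.09, 1.08 and 1.82 CPM (log2 change 2.26 ± 0.32, adjusted p = 0.0011), and Rrm2, a subunit of ribonucleotide reductase, at 4.57 to 5.26 CPM against 1.94 to 3.16 CPM. The list held 5 to 7 calls in the 5 fits without TERT WT/WT saline replicate 2 or 3 or actin-rtTA+ replicate 2, 3 or 4. It held 18 without actin-rtTA+ replicate 1. Of 26 tubule injury genes 3 were higher and 1 lower (median 0.14), which is 15.4% called against 14.0% of all genes tested. In each of the 6 fits without any one library of the saline group or without actin-rtTA+ replicate 2 or 3, 1 or 2 calls were left. Without actin-rtTA+ replicate 1 the tubule injury list held 6. Of 28 genes of the integrated and mitochondrial stress responses 3 were higher and 1 lower (median 0.13, 14.3% called, near the 14.0% of all genes). Asns, asparagine synthetase, was at 6.21 to 12.2 CPM against 3.04 to 3.88 CPM (log2 change 1.29 ± 0.20, adjusted p = 0.0016). This list held 2 calls without TERT WT/WT saline replicate 2 or 4 or actin-rtTA+ replicate 3, and 7 without actin-rtTA+ replicate 1.

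The remaining lists moved little or rested on few genes. Of 13 mitochondrially encoded messenger RNAs 2 were lower (median -0.17, 15.4% called where 14.0% of all genes were). mt-Atp8 was among them at 2.24 to 3.50 CPM against 3.89 to 7.00 CPM. The list held 1 to 5 calls in the fits without 1 library (5 without actin-rtTA+ replicate 2). Red cell genes gave 2 higher of 7 (median 0.60, 28.6% called). They held 5 calls without actin-rtTA+ replicate 1 and 1 in each fit without 1 of the other libraries except TERT WT/WT saline replicate 3. Urothelial and parietal markers gave 2 higher and 2 lower of 16 (median -0.08, 25% called). That list held 1 or 2 calls in each of 4 fits without 1 library. Adipocyte markers gave 1 higher of 9 (median 0.65, 11.1% called, below the 14.0% of all genes). This gene was the gluconeogenic enzyme Pck1 of the proximal tubule, at 2371 to 3244 CPM against 1433 to 2017 CPM. Without actin-rtTA+ replicate 4 the adipocyte list held 2 calls. Adrenal markers gave 1 higher of 3 (median 0.86, 33.3% called), which was the steroid dehydrogenase Hsd3b1 at 0.522 to 0.826 CPM against 0.0202 to 0.0747 CPM. The defining adrenal gene Cyp11b1 was not among the genes tested. Skeletal muscle and reproductive tract markers gave 1 higher and 1 lower of 8 (median 0.32, 25% called). That list held 1 call in each of 4 fits without 1 library.

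Of 42 tested genes known to vary between inbred strains by deletion, duplication or regulatory variants, 6 were higher and 4 lower (median 0.28). The called share was 23.8%, against 14.0% of all genes tested. In this list 6 were called without TERT WT/WT saline replicate 2 and 13 without actin-rtTA+ replicate 1. Besides C4a, C4b and Klk1, the called genes included Glo1, glyoxalase, which is duplicated in some strains, at 94.9 to 148 CPM against 59.3 to 96.5 CPM, ranges that overlapped (log2 change 0.89 ± 0.18, adjusted p = 0.0083). Sirpa, a receptor of macrophages and neurons, was at 122 to 136 CPM against 86.2 to 104 CPM, and the nucleic acid sensor Ifi202b at 1.89 to 3.23 CPM against 1.07 to 1.54 CPM. Cd59a, Trim30a, Hbb-bt and the retroviral restriction gene Fv1 were called, Fv1 lower (log2 change -0.99) and the others higher, but those 4 calls were lost in 3 to 6 of the 8 fits without 1 library, with an adjusted p of up to 0.12. The other 32 did not pass the test, with log2 changes between -1.20 and 1.68, among them Serpina3k, Gpnmb, Hbb-bs, Il3ra, Nlrp1b, Mx1, Naip1, Naip2, Cd59b, Klk1b5, Trim34a, Mx2, H60b, Apoa2, Naip6, Nnt, Trim12c, Pisd-ps1, Slc11a1, Disc1, Xpr1, Bcl2a1d, Naip5, Prkdc, Mmrn1, Ren1, Apobec3, Ahr, Wdfy1, Pisd-ps2 and Zhx2. Naip, Trim and Hbb genes have close paralogs between which reads may be shared.

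Tert itself, the gene that the series manipulates in other mice, was at 3.43, 2.18, 2.97 and 3.25 CPM in actin-rtTA+ and 3.78, 3.79, 3.06 and 3.04 CPM in saline kidneys. The groups overlapped and the difference did not pass the test (log2 change -0.21 ± 0.17, adjusted p = 0.47). Of 18 tested telomerase and telomere genes none was called by edgeR at the adjusted threshold, where 3 had an unadjusted p under 0.05, DESeq2 called 0 and limma voom 1. Their median log2 change was 0.03. Stn1, of the complex that binds single-stranded telomere ends, was at 10.8 to 11.7 CPM against 8.86 to 10.0 CPM (log2 change 0.24 ± 0.09, adjusted p = 0.094).

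Called genes lay on every autosome, from 10.5% of tested genes on chromosome 14 to 18.3% on chromosome 4. In windows of 2 Mb with at least 10 tested genes, the median share called was 11.8% over 621 windows, 9 windows held at least 50% called genes and 71 held none. The fullest was chromosome 4 from 146000001 to 148000000, which is rich in KRAB zinc finger repressors of mobile elements, with 11 of 13 genes called, 5 higher and 6 lower. Within it Zfp984 was at 1.30 to 1.64 CPM against 6.09 to 8.54 CPM and Zfp992 at 2.13 to 3.05 CPM against 0.633 to 0.971 CPM, named after their values were seen. The window of chromosome 3 from 82000001 to 84000000, which holds the fibrinogen genes, had 8 of 13 called. Neighbouring genes are not independent of each other, since they can share a haplotype.

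The actin-rtTA+ mice varied more among themselves than the saline mice. The common biological coefficient of variation was 0.184 in actin-rtTA+ and 0.125 in saline kidneys over 17164 genes, X and Y included, and the median over genes 0.166 and 0.122. Of 13588 genes averaging 1 CPM or more, the SD of the log2 level was more than 2 times that of the other group in 2745 genes for actin-rtTA+ (20.2%) and in 804 for saline kidneys (5.92%). The median SD was 0.19 and 0.15 log2 units.

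Some genes divided the mice of one group outright, with a gap of at least 2 log2 units between neighbours in rank, while the other group stayed within 1 log2 unit and the highest mouse reached at least 2 CPM. There were 22 such genes in actin-rtTA+ and 2 in saline kidneys, and no test was run. Gm43305, a processed transcript of chromosome 14, was at 0.564, 0.375, 1.13 and 83.1 CPM in the actin-rtTA+ mice, replicate 4 standing alone, at 47.1, 61.2 and 115 CPM in the 3 i-TERTci mice of the same background, and at or under 0.0652 CPM in the saline kidneys. It was called (log2 change 9.03 ± 2.57, adjusted p = 0.049), the change without actin-rtTA+ replicate 4 was 4.08 ± 0.57 (adjusted p = 0.0018), and the call was lost in 6 of the 8 fits without 1 library, without actin-rtTA+ replicate 1 or 2 or any saline library. Trim12a, of the Trim5 antiviral family, showed the same mouse apart, at 0, 0, 0.0675 and 4.59 CPM in actin-rtTA+ and 5.85 to 19.6 CPM in i-TERTci.

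Replicates 1 to 4 of actin-rtTA+ stood alone at 6, 4, 3 and 7 of the 22 genes, and the 6 of replicate 1 are given next. BC023719, an antisense gene of chromosome 17, was at 5.91 CPM in that mouse, at 0 in the other 3 and in all 4 saline kidneys, and at 5.90 CPM in 1 of the 3 i-TERTci mice. H2-Q1, a class I gene, was at 2.21, 0, 0.113 and 0.0202 CPM in actin-rtTA+, where replicate 1 lay near the 2.47 to 2.76 CPM of the saline kidneys, and at 0 to 0.0535 CPM in i-TERTci. H2-T-ps, an MHC pseudogene that overlaps BC023719 and may share reads with it, was at 5.85 CPM in replicate 1 against 0.748 to 1.24 CPM in the other 3 and 0.199 to 0.348 CPM in saline kidneys. The other 3 genes lay outside the MHC. Gm10260 of chromosome 13 was at 7.46 CPM in replicate 1 against 0.045 to 0.175 CPM in the other 3, and at 17.4 to 31.6 CPM in saline kidneys. Gm44956, a long non-coding RNA of chromosome 8, was at 6.60 CPM against 0.901 to 1.17 CPM, and the lipase gene Lipo3 of chromosome 19 was lower in that mouse, at 0.919 CPM against 4.73 to 11.6 CPM in the other 3 and 9.80 to 12.2 CPM in saline kidneys. Gm36325, Gm10036, Gm4875, Tmem181b-ps and Gm7463 divided the mice in other ways: Gm36325, a long non-coding RNA, was at 0.731, 10.99, 0.270 and 8.07 CPM, so that 2 mice lay near the saline kidneys (10.5 to 15.1 CPM) and 2 far below.

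In the saline kidneys the 2 divided genes were Nap1l1, a histone chaperone, at 117, 108, 68.5 and 13.2 CPM, and the processed pseudogene Gm4204 at 3.78, 3.93, 2.42 and 0.448 CPM. Replicate 4 was the lowest and replicate 3 the next at both. In the actin-rtTA+ mice Nap1l1 stayed between 114 and 126 CPM, and in TERT KO/KO saline mice it was at 60.1 to 117 CPM.

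**Figure D5:**
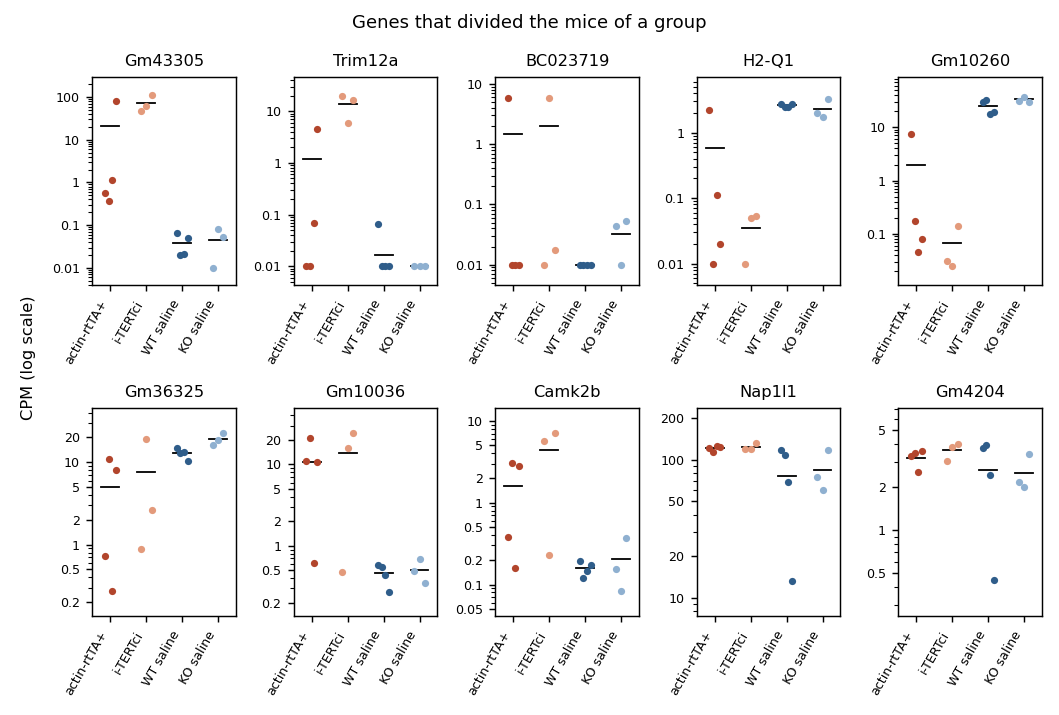
Level of 10 genes that divided the mice of a group, by mouse, in CPM on log scales that differ between panels; the columns are actin-rtTA+ (4 mice), i-TERTci (3), TERT WT/WT saline (4) and TERT KO/KO saline (3), points are mice, bars are group means, and values under 0.01 are drawn at 0.01. For Gm43305 and Trim12a actin-rtTA+ replicate 4 lies with the i-TERTci mice, and for H2-Q1 and Gm10260 actin-rtTA+ replicate 1 lies nearest to the Balb/c groups, and the TERT WT/WT saline mice are divided for Nap1l1 and Gm4204.

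A second pair of groups spans the same 2 backgrounds with no library in common with the first: i-TERTci mice (3, the actin-rtTA+ background, doxycycline and withdrawal with the catalytically inactive TERT transgene added) against TERT KO/KO saline mice (3, the Balb/c experiment with the TERT gene deleted). It therefore adds induction of TERTci and loss of TERT to the baseline gap. Of 17020 genes tested, 1015 were called (5.96%), 680 higher in i-TERTci (4.00%) and 335 lower (1.97%). Without i-TERTci replicate 2 the count was 5654, and it was between 71 and 830 without any other library, so that it rests on single mice.

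Of the 2277 genes called between the control kidneys and tested in both comparisons, 555 were also called here (24.4% of the first set and 58.9% of the 942 genes called here), and all 555 had the same direction. The log2 change had the same sign in 81.4% of the called genes of the first set, in 91.3% of the 850 with a log2 change of at least 1, and in 138 of the 139 with at least 3, against 57.8% of all 16383 genes tested in both. Agt repeated its gap, at 5.25 between the controls and 5.50 ± 0.23 in the second pair on the log2 scale (adjusted p = 0.0001), as did Rpl26 (5.78 and 5.32), Gm15772 (-5.92 and -6.66), Tpm3-rs7 (-6.79 and -6.11), H2-Ea-ps (-8.94 and -12.56), Plin2 (1.68 and 1.65) and Ugt1a10 (3.48 and 3.38). Each of those 7 was called in both comparisons.

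Other genes called between the controls were not called in the second pair, where mice of the same group could differ widely. Ttr had a log2 change of -5.42 between the controls and -0.83 ± 1.54 in the second pair (adjusted p = 0.75). It was at 0.793, 0.807 and 88.3 CPM in i-TERTci against 39.2 to 69.0 CPM in TERT KO/KO saline, so that 2 of the 3 i-TERTci mice lay as low as the actin-rtTA+ mice. Kap had 0.93 and 0.01 ± 1.10 (adjusted p = 1), at 328, 19543 and 8419 CPM in i-TERTci against 6325 to 12302 CPM. G6pc had 0.92 and -0.08 ± 0.65 (adjusted p = 0.94), at 78.7, 674 and 286 CPM against 327 to 400 CPM. Both were lowest in i-TERTci replicate 1 and highest in replicate 2. The log2 changes were -1.43 and 0.22 ± 0.43 for Arntl (adjusted p = 0.76), -1.96 and 0.31 ± 0.59 for C4b (adjusted p = 0.76) and 1.23 and 0.12 ± 0.42 for Sord (adjusted p = 0.87). Arntl was at 3.57, 1.92 and 2.94 CPM in i-TERTci and at 1.90, 3.95 and 1.52 CPM in TERT KO/KO saline, so that both groups were spread. The difference between the comparisons was not tested at these genes. Interferon-stimulated genes gave 7 higher and none lower of 56 in the second pair, MHC class I genes 8 higher and 1 lower of 25, and intercalated cell markers none higher and 6 lower of 20 (median -0.70). Circadian clock genes gave 2 higher and 1 lower of 22 (median 0.03).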

How the data were processed

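Whole kidneys were sequenced as bulk RNA with paired-end reads. The authors trimmed reads with Trimmomatic, checked them with FastQC and aligned them to the mm10 genome with STAR, and deposited 1 table of raw counts per gene for all 20 mice. The counting tool, annotation release and strand setting are not given in the sources used here. DESeq2 is named in the submitters' processing notes.

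The deposited counts were used as they stand. Positions and symbols came from GENCODE M21 (GRCm38), which matched 55230 of 55471 identifiers. The 8 libraries, of 39323498 to 47988251 counts, were fitted with edgeR 4.0.16 (R 4.3.3, filterByExpr, TMM factors, robust quasi-likelihood test, 1 coefficient per group), with Benjamini-Hochberg adjustment over all 17164 genes tested and a threshold of 0.05. Results outside X and Y were read from that fit, and the i-TERTci and TERT KO/KO saline libraries were fitted separately in the same way. Each SE is the size of the log2 change divided by the square root of the F statistic of the quasi-likelihood test. CPM are TMM-scaled, and values of the i-TERTci and TERT KO/KO mice are on factors of all 20 libraries. Gaps between mice used log2(CPM + 0.1). Copies were matched to protein-coding transcripts with blastn at 90% identity over at least 50% of the copy.

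The genes, lists and comparisons were chosen with earlier results of these data known. Genes were named by rule: the 10 largest rises and falls without overlap at a mean of 1 CPM or more, genes present in 1 group only, the 8 most abundant called genes in each direction at a log2 change of 1 or more, up to 4 genes of smallest p per list, the strain-variant list, the 10 most divided genes and Tert. Those that the rule gave but that the text leaves out are counted in its totals. Some named genes are not reported here. Other genes named were chosen after their values were seen: the copied genes, Alb, Apob, Gbp10, Nap1l1, Gm4204, C1s1, Cd55, Serping1, Gm44956, Lipo3, H2-T-ps, 2 zinc finger genes and the markers of whole kidney. Alternatives were RLE factors, other count filters, DESeq2 1.42.0, limma 3.58.1 voom with quality weights, a replicate block, fits of 20 or 19 libraries, a test against a 1.5-fold change, and leaving out each library.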

Additional observations from a re-analysis of the deposited data

Results flagged for a closer look

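In groups of 4 mice, 1 value standing far from the other 3 was looked for in the 161 genes named in the report (322 gene and group sets), and 31 were found, 18 in actin-rtTA+ and 13 in the saline kidneys. Chance flags about 1 in 20 groups, but some of these genes were named because 1 mouse stood apart, so the number found was not read against that rate.

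In actin-rtTA+, replicate 1 stood apart at BC023719 (5.91 CPM), Gm10260 (7.46 CPM), H2-Q1 (2.21 CPM), H2-Ea-ps (0.334 CPM), H2-T-ps (5.85 CPM), Gm44956 (6.60 CPM), Apob (178 CPM), Slc10a2 (99.6 CPM) and, below the others, at Plin2 (72.0 CPM). Replicate 2 stood apart at Apoa2 (2.25 CPM), and replicate 3 at Pdk4 (16.2 CPM) and, below the others, at Sirpa (122 CPM). Replicate 4 stood apart at Gm43305 (83.1 CPM), Trim12a (4.59 CPM) and Trim34a (5.38 CPM), below the others at Sgk1 (110 CPM), and with a single count at Serpina3b (0.0202 CPM) and Serpina3h (0.0202 CPM). Trim12a and Trim34a lie in the same gene cluster of chromosome 7 and may share reads.

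In the saline kidneys, replicate 1 stood apart below the others at Fmo4 (3.65 CPM) and Fv1 (1.52 CPM), and above them at Trim12a (0.0652 CPM, where the others had no count). Replicate 2 stood apart at Igha (13.7 CPM) and Plin2 (30.9 CPM). Replicate 3 stood apart at G6pc (335 CPM), Glo1 (96.5 CPM) and Elobl (0.0211 CPM, a single count). Replicate 4 stood apart at Fgb (0.473 CPM), Rrm2 (3.16 CPM) and Catspere1 (0.0498 CPM), and below the others at Gbp4 (11 CPM) and Spink6 (22.3 CPM).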

How the results depend on the processing

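The count of 2320 genes between the control kidneys was 1335 with a replicate block, 1312 in a fit of 19 libraries, 493 in a fit of all 20, 574 against a 1.5-fold change and 4006 with limma voom, and 1534 to 3158 without 1 library. The other settings gave 1915 to 3040, and in each of these fits every call shared with the reported set had the same direction. The replicate numbers did not pair the mice (correlations of same-numbered deviations -0.504, 0.0968, -0.144 and 0.0362), so the block is given here only. The count of 1015 in the second comparison was 140 with a replicate block, 3581 with 19 libraries, 236 against a 1.5-fold change, 3094 with DESeq2, 7878 with limma voom, 580 with a filter of 1 CPM, and 71 to 5654 without 1 library. Its share of higher genes was 67.0% with TMM and with RLE factors, 74.6% with all 20 libraries, 54.4% with limma voom, 51.6% to 63.6% without 1 library and 59.3% to 70.5% in the other settings. The 22 divided genes were 44 at a gap of 1.5 log2 units and 10 at a gap of 3. Windows with at least 50% called were 9 at 2 Mb, 5 at 1 Mb and 1 at 5 Mb. Counts per list moved with the settings too. Besides the fits without 1 library, intercalated cell markers held 0 to 15 calls (11 reported) and proximal tubule markers 0 to 21 (14 reported). Sterol and fatty acid synthesis genes held 0 to 15 (11 reported), complement genes 1 to 19 (14 reported) and interferon-stimulated genes 3 to 37 (31 reported). Causes were not tested.

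Of the 159 named genes with a fit, 8 that were not called changed sign without 1 library. Over those fits the log2 change ranged from -0.0906 to 0.0168 for Ahr, -0.0167 to 0.15 for Apobec3, -0.0698 to 0.53 for Gm4204, -0.23 to 1.26 for Gm44956, -0.32 to 0.0902 for Pisd-ps2, -0.11 to 0.27 for Ren1, -0.21 to 0.0718 for Wdfy1 and -0.0918 to 0.0987 for Zhx2. With 20 libraries 64 calls fell short of the threshold, against the 1.5-fold change 40, with 19 libraries 29, and with the block 9. Depth was even between groups, and genes under the count filter were not tested.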
